A study of Mus musculus with 9 samples.

Results

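The genes described here are 43 genes of the mitotic spindle, the kinetochore, the spindle assembly checkpoint and cytokinesis, among the 10762 genes measured. They were chosen by name for their roles in mitosis, with earlier results of these data known, and all 43 were present. Messenger RNA was sequenced from B16.SIY, a mouse melanoma line of C57BL/6 strain bearing a dsRED fusion of SIY, a model antigen, where dsRED is a red fluorescent protein. Lentivirus had delivered a short hairpin RNA (shRNA) to the cells, and stable lines had been selected with puromycin, in DMEM with 10% fetal calf serum. The groups were Decr2 shRNA1, Decr2 shRNA2 and control shRNA, with 3 libraries each. In what follows they are called shRNA1, shRNA2 and control, and every group, control included, carries an integrated hairpin and the SIY-dsRED antigen. Decr2 encodes a peroxisomal 2,4-dienoyl-CoA reductase needed to degrade polyunsaturated fatty acids. The series title speaks of tumors, while the sample labels describe a cell line, and the values are treated here as those of cultured cells.

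Mitosis begins when B-type cyclins activate the kinase CDK1, after which Polo and Aurora kinases organise the spindle. Kinetochores, built on the centromeres, bind the ends of microtubules, and the spindle assembly checkpoint holds back the anaphase-promoting complex (APC/C) until every chromosome is attached. Separase then releases the sister chromatids, and the central spindle and a contractile ring divide the cell. Genes of this programme are transcribed together late in the cell cycle and are widely used as a measure of how many cells in a culture are dividing.

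Many promoters of such genes carry a CHR element (cell cycle genes homology region), which is bound by MuvB complexes, and CCAAT boxes, which are bound by NF-Y. The promoters of the 4 members that passed the main test, Kif4, Kif23, Ttk and Bub1b, and of Ccnb2, the member with the highest value against control, are shown to let these elements be compared. They are RefSeq promoters on GRCm38.p6, from 250 bases before to 50 bases after the start, written 5′ to 3′ on the strand of the gene. Capitals mark a CHR (TTTGAA or TTCGAA) or a CCAAT, each on either strand. The windows are chrX:100625815-100626114 on the plus strand for Kif4, chr9:61946750-61947049 on the minus strand for Kif23, chr9:83834439-83834738 on the plus strand for Ttk, chr2:118597961-118598260 on the plus strand for Bub1b and chr9:70421505-70421804 on the minus strand for Ccnb2.
Kif4: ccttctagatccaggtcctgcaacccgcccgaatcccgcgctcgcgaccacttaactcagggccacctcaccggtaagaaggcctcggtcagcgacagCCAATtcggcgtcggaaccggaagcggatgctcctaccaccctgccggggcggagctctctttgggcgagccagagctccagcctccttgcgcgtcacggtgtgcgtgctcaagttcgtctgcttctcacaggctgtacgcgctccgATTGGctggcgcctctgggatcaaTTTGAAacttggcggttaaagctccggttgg
Kif23: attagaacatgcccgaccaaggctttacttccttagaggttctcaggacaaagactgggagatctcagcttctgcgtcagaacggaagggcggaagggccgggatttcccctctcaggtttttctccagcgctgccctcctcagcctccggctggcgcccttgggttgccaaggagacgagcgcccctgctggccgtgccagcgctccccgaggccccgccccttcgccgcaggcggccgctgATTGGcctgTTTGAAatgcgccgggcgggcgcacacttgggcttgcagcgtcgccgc
Ttk: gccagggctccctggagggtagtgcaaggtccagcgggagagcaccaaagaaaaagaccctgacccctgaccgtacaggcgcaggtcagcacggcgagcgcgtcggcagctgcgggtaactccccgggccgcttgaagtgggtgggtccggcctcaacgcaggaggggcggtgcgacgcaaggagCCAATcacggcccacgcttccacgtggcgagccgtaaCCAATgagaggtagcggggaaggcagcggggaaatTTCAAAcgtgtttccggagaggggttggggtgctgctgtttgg
Bub1b: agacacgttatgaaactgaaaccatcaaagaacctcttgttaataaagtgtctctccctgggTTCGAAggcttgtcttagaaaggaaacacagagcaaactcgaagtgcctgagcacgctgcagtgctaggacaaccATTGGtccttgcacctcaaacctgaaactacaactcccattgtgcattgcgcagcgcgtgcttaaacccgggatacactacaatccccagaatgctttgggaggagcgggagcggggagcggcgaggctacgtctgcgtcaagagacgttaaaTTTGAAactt
Ccnb2: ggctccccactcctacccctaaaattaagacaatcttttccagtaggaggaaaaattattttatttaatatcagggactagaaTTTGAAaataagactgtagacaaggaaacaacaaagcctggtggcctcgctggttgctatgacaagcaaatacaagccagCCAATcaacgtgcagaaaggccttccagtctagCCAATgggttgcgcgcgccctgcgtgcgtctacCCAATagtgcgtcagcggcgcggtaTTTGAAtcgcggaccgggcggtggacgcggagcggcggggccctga

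All 5 windows held a CHR and at least 1 CCAAT. The CHR lay 20 bases after the start in Kif4, 3 after it in Kif23, 8 after it in Ttk (on the opposite strand), 41 after it in Bub1b and 5 after it in Ccnb2, counted to the first base of the motif. Bub1b had another CHR starting at -188 and Ccnb2 another at -167, relative to the start, and Ccnb2 had 3 CCAAT boxes, at -87, -54 and -21. RefSeq promoters were at hand for 36 of the 43 members. A CHR was found in 29 of them (80.6%), against 19.4% of all 27025 genes with a promoter window of the same length. That background is not limited to the genes measured here. A CCAAT was found in 26 (72.2%), against 37.8%, and both motifs in 24 (66.7%), against 7.57%. Unlike the other 4 windows, that of Kif23 did not end in bases found at the start of an annotated GENCODE transcript. A match of letters describes the window and does not show that a factor binds there.

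Decr2, the targeted gene, had log2 values of 2.87, 2.51 and 3.18 in shRNA1 libraries, 0.84, 1.18 and 1.55 in shRNA2 libraries, and 3.96, 4.10 and 3.71 in control libraries. The 3 groups did not overlap. The level was 47.6% of control in shRNA1 (log2 difference -1.07, SE 0.23, adjusted p = 0.0195, limma) and 15.0% of control in shRNA2 (-2.73, SE 0.23, adjusted p = 0.000568). With shRNA1 the call was lost on leaving out replicate 1 of control (difference -0.98, adjusted p = 0.0872), replicate 2 of control (-1.18, 0.0537) or replicate 1 of shRNA1 (-0.90, 0.0579). Of 10 melanocyte markers 9 were listed, Kit being the one without a value, and of 35 markers of 7 other cell types 4 were listed (Col1a1, Pdgfrb, Postn and Plvap). Library correlations were 0.966 to 0.994 within groups and 0.955 to 0.988 between them.

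The median mitotic gene stood slightly lower in both Decr2 knockdown lines than in control, and few members passed the test. Taking the mean of both hairpins against control, 4 of 43 members (9.3%) fell, namely the kinesins Kif4 and Kif23 and the checkpoint genes Ttk and Bub1b, and 0 rose. Among all genes 7.89% were called lower and 9.69% higher, so in this fit the share of members called lower was near that of the table as a whole. That share depended on the setting, as described below. It was 25.6% against 14.1% of all genes with a replicate block, and 44.2% against 20.5% without the 3 libraries numbered 0. With quantile normalization 2 members were called lower, against 7.24% of all genes. With the lowest 25% of genes removed, 4 of the 43 members were called lower, against 9.57% of the genes kept. In bulk RNA, fewer cells in mitosis and less RNA per mitotic cell cannot be told apart. A call means an adjusted p under 0.05 in limma, over all genes. The background given beside a count is the percentage of all genes. Because the members were chosen with earlier results of these data known, these shares are descriptive. With shRNA1 alone, 2 members (4.65%), Kif23 and Kif4, were called lower (background 5.49%) and 0 higher (background 6.92%). With shRNA2 alone, only Kif4 (2.33% of members) was called lower (background 5.67%) and 0 were called higher (background 7.27%). Kif4 was the 1 member called with both hairpins, against 3.01% of all genes called lower and 4.54% called higher with both. In the authors' deposited table, Kif23 and Kif4 passed in the shRNA1 comparison and Kif4 in the shRNA2 comparison. At an unadjusted p under 0.05, 16 members (37.2%) were lower in the mean of both hairpins (background 15.7%). Only Ccnb2 (2.33% of members) was higher (background 17.5%). With shRNA1 these unadjusted counts were 10 lower (23.3% of members, background 13.6%) and 0 higher (background 15.1%). With shRNA2 they were 10 lower (23.3%, background 13.5%) and 2 higher (4.65%, background 15.8%), namely Ccnb2 and Spc25.

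The size of the differences was small and their direction was mostly downward. The median member stood at -0.14 on the log2 scale with shRNA1, -0.08 with shRNA2 and -0.11 in the mean of both, against 0.00, 0.00 and -0.00 over all genes. With shRNA2 it was -0.14 without control replicate 0, -0.18 without the 3 libraries numbered 0, -0.16 with library weights and -0.03 with quantile normalization. Quantile normalization gave -0.09 with shRNA1, and leaving out the libraries numbered 0 gave -0.16 in the mean. With the lowest 25% of genes removed, all 43 members remained. The medians over all genes kept were then -0.03 with shRNA1, -0.02 with shRNA2 and -0.03 in the mean. Fold differences lay below 0 for 38 members (88.4%) with shRNA1 (background 49.7%), 32 (74.4%) with shRNA2 (background 49.4%) and 34 (79.1%) in the mean (background 50.1%). Both hairpin means lay under the control mean in 31 members (72.1%), against 39.8% of all genes. Across members the mean difference ran from -0.37 (Kif4) to 0.21 (Ccnb2), while the quartiles of all genes were at -0.16 and 0.19. The 95% intervals of all 43 members lay within -1 to 1, and those of 38 within -0.5 to 0.5. Both hairpin comparisons share the same 3 control libraries.

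**Figure D1:**
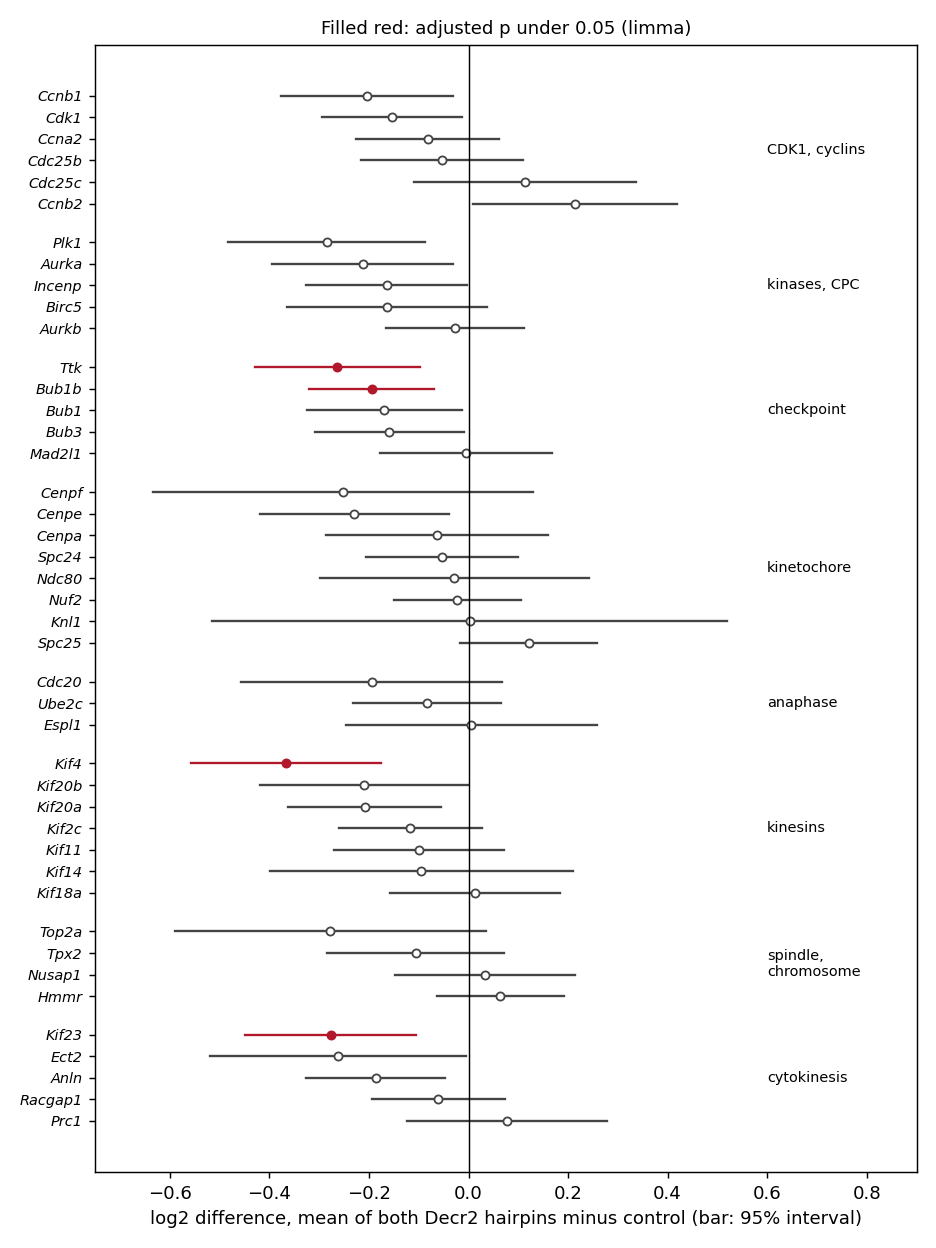
Log2 difference, mean of both Decr2 hairpins minus control, for each of the 43 mitotic genes, with 95% intervals as bars, grouped by role. Filled red points passed at an adjusted p under 0.05 (Ttk, Bub1b, Kif4 and Kif23), and 34 of 43 points lie left of 0, between -0.37 and 0.21 over all members.

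The spread between libraries bore on these counts. Over all genes, libraries numbered 0 in the sample titles deviated alike across the groups, whereas digits 1 and 2 were not set apart from each other. With a replicate block on the digits, 11 members (25.6%) were called lower in the mean of both hairpins (background 14.1%). In the same fit 1 member (2.33%) was called higher (background 16.2%). The 11 were Anln, Bub1b, Ccnb1, Cdc20, Ect2, Kif20a, Kif23, Kif4, Plk1, Top2a and Ttk, and the 1 higher was Ccnb2. Per hairpin, the block called 6 lower with shRNA1 (background 11.2%) and 5 lower with shRNA2 (background 10.6%), and 1, Spc25, higher with shRNA2 (background 13.4%). The shRNA1 set was Ect2, Kif20a, Kif23, Kif4, Top2a and Ttk, and the shRNA2 set was Cdc20, Cenpe, Ect2, Kif4 and Ttk, so 3 members were in both. The libraries numbered 0 stood apart from the others of their group. Against the mean of libraries 1 and 2, library 0 had a median member difference of -0.13 in shRNA1, 0.06 in shRNA2 and -0.08 in control. In that order 27, 13 and 31 members (62.8%, 30.2% and 72.1%) lay below 0 (backgrounds 48.8%, 49.5% and 50%). Only 9 members (20.9%) lay below 0 in all 3 groups (background 26.1%), so the median member did not deviate alike in shRNA2. Without the 3 libraries numbered 0, an alternative chosen after seeing the data, 19 members (44.2%) were called lower in the mean (background 20.5%) and Ccnb2 was called higher (background 20.9%). Beyond the 11 lower members of the block these were Aurka, Birc5, Bub1, Bub3, Cdc25b, Cenpe, Incenp and Kif20b. In that setting 15 members (34.9%) were lower with shRNA1 (background 16.9%). With shRNA2, 19 (44.2%) were lower and 3 (6.98%) higher (backgrounds 18.1% and 19.2%).

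Single libraries also moved the counts, which are out of 43 members, while the backgrounds are percentages of all genes. The 4 members called lower in the mean became 9, 1 and 3 on leaving out replicate 0, 1 or 2 of shRNA1 (backgrounds 11.6%, 6.52% and 6.09% of all genes lower). They became 5, 1 and 1 on leaving out those of shRNA2 (7.23%, 5.24% and 5.18%), and 2, 0 and 0 on leaving out those of control (5.71%, 2.22% and 2.20%). The shRNA1 count of 2 became 0 when replicate 1 or replicate 2 of any group was left out (backgrounds 1.19% to 3.73%), and 1 when shRNA1 replicate 0 was (6.72%). That 1 was Birc5, and the calls of Kif23 and Kif4 were lost. Without control replicate 0 the shRNA1 count stayed at 2 (background 4.19%), with Plk1 in place of Kif23. With shRNA2 the count of 1 became 7 without shRNA1 replicate 0 (background 10.3%) and 2 without shRNA2 replicate 0 (4.07%) or control replicate 0 (3.84%). It became 0 without replicate 2 of any group or replicate 1 of shRNA2 or control (backgrounds 1.38% to 4.12%).

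Library by library, the mean log2 value over the 43 members was 6.95, 7.05 and 7.06 in shRNA1, 7.09, 7.04 and 7.07 in shRNA2, and 7.09, 7.19 and 7.18 in control. Control replicates 1 and 2 were highest and shRNA1 replicate 0 lowest, and control replicate 0 was level with shRNA2 replicate 0 to the digits given. Every shRNA1 library was lower than the control of its own digit for 29 members (67.4%, background 27.2%), and every shRNA2 library was lower for 18 (41.9%, background 29.5%). For 17 members (39.5%) this held in both lines (background 19.0%). The opposite pattern, every hairpin library above the control of its digit, held with both hairpins only for Ccnb2 (background 20.3%). All 3 libraries of a line lay below all 3 controls for 12 members (27.9%) with shRNA1 (background 16.6%) and 12 (27.9%) with shRNA2 (background 18.7%). For 8 members (18.6%) they did so with both hairpins (background 10.9%), and these were Anln, Aurka, Bub1b, Ccnb1, Cdk1, Kif20a, Kif4 and Ttk. Lying above all controls was seen for 0 members with shRNA1 (background 17.3%), 4 (9.3%) with shRNA2 (background 20.1%) and 0 with both (background 12%).

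**Figure D2:**
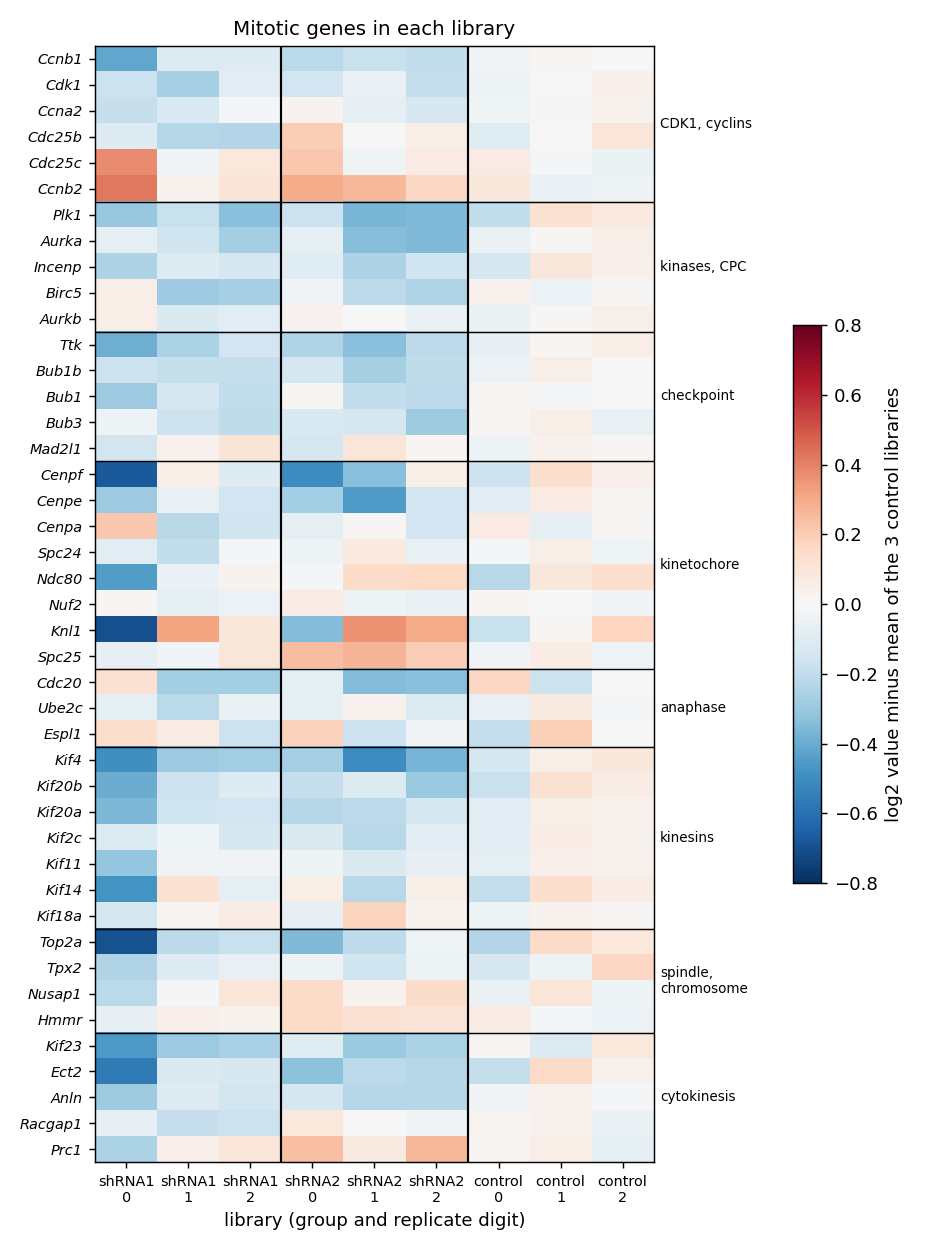
Log2 value of each mitotic gene in each library minus the mean of the 3 control libraries of that gene, by role (rows) and by group and replicate digit (columns, shRNA1, shRNA2, then control). Blue is below the control mean and red above it. Ccnb2 is above the control mean in all 6 hairpin libraries, and Knl1, Cenpf and Top2a are lowest in shRNA1 replicate 0.

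**Figure D3:**
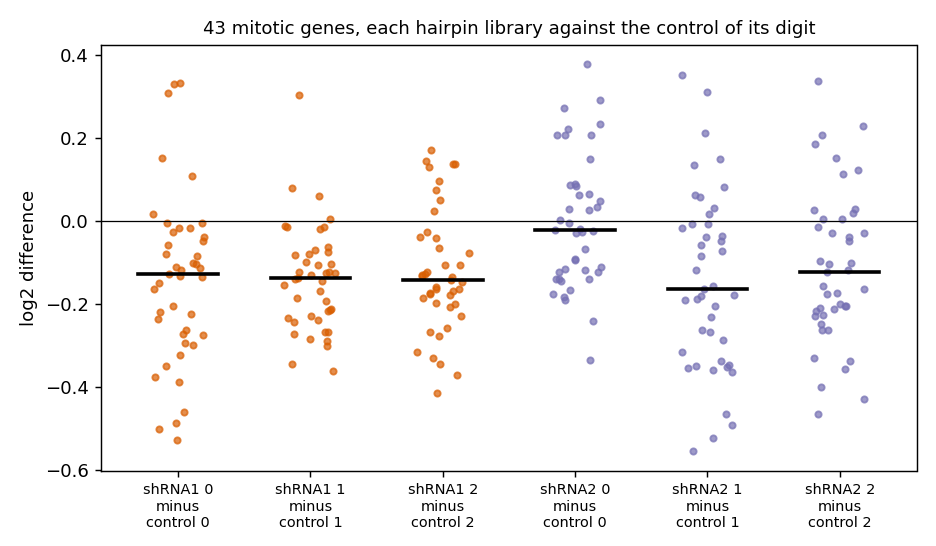
Log2 difference between each hairpin library and the control library of the same digit, where each point is 1 of the 43 mitotic genes and the line is the median. The median lies below 0 in all 6 pairs and is nearest 0 in shRNA2 replicate 0 minus control replicate 0.

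CDK1, its cyclins and their activating phosphatases held members on both sides of control. None of these 6 genes passed in the mean of both hairpins (background 17.6% of all genes in either direction). Both the block and the setting without libraries 0 did call Ccnb1 and Ccnb2 in the mean, in opposite directions. Ccnb2, a B-type cyclin, had log2 values of 7.16, 6.77 and 6.84 in shRNA1 libraries, 7.04, 7.0 and 6.90 in shRNA2 libraries, and 6.83, 6.68 and 6.70 in control libraries. All shRNA2 values were above all controls, whereas 1 shRNA1 library (replicate 1) fell inside the control range. The mean difference was 0.21 (SE 0.09, 95% interval 0.01 to 0.42), which is 116% of control, with an adjusted p of 0.135, and of 0.0413 with the replicate block (limma). Ccnb1, the main mitotic cyclin, had 7.47, 7.77 and 7.78 in shRNA1 libraries, 7.67, 7.71 and 7.69 in shRNA2 libraries, and 7.86, 7.91 and 7.89 in control libraries. Both lines lay wholly below control, by -0.20 in the mean (SE 0.08, adjusted p = 0.0975, and 0.045 with the block, limma). Cdc25c, a phosphatase that activates CDK1 at mitotic entry, had 5.40, 5.0 and 5.11 in shRNA1 libraries, 5.24, 5.0 and 5.09 in shRNA2 libraries, and 5.09, 5.01 and 4.98 in control libraries. The groups overlapped, and the difference of 0.11 (SE 0.10) did not pass (adjusted p = 0.466, limma). Cdk1 itself, which drives entry into mitosis, differed by -0.15 (SE 0.06), cyclin A2 (Ccna2) by -0.08 (SE 0.06) and the phosphatase gene Cdc25b by -0.05 (SE 0.07), none of them called in the main test. For Cdc25b this joined -0.19 with shRNA1, all its libraries below all controls, and 0.08 with shRNA2. Without the libraries numbered 0, Cdc25b was called lower in the mean (-0.15, adjusted p = 0.0409, limma).

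The mitotic kinases and the chromosomal passenger complex were 5 members, all below control in the mean (background 50.1% of all genes). None passed the main test in the mean (background 17.6% of all genes in either direction). Centring libraries on their median called Plk1 lower in the mean, and library weights called Plk1, Aurka, Incenp and Birc5 lower. Plk1 was also called lower without control replicate 0, with each hairpin and in the mean, and without shRNA2 replicate 0 in the mean. Birc5 was called lower with shRNA1 and in the mean without shRNA1 replicate 0. Aurka was called lower with shRNA2 and in the mean without shRNA2 replicate 0. Without the libraries numbered 0, Plk1, Aurka, Incenp and Birc5 were called lower and Aurkb was not. Plk1, the Polo kinase of centrosomes, kinetochores and the midbody, had log2 values of 6.63, 6.76 and 6.60 in shRNA1 libraries, 6.77, 6.57 and 6.58 in shRNA2 libraries, and 6.74, 7.06 and 7.01 in control libraries. Control replicates 1 and 2 were above every hairpin library, while control replicate 0 lay among them. The difference was -0.28 (SE 0.09, 82.1% of control) with an adjusted p of 0.0531, and of 0.0376 with the replicate block (limma). Without the libraries numbered 0 it was -0.41 (adjusted p = 0.000905, limma). Aurka, the Aurora kinase of the spindle poles, had 6.90, 6.82 and 6.71 in shRNA1 libraries, 6.91, 6.63 and 6.62 in shRNA2 libraries, and 6.93, 6.98 and 7.02 in control libraries. Hairpin and control libraries did not overlap, and the difference of -0.21 (SE 0.08) was not called (adjusted p = 0.10, limma). The passenger complex, which corrects faulty attachments, comprised Incenp at -0.16 (SE 0.07), Birc5 (survivin) at -0.16 (SE 0.09) and the kinase gene Aurkb at -0.03 (SE 0.06).

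In the spindle assembly checkpoint, 2 of 5 members fell in the mean of both hairpins (background 7.89% of all genes) and the other 3 did not pass. Ttk encodes MPS1, the kinase that starts checkpoint signalling at unattached kinetochores. Its log2 values were 5.11, 5.24 and 5.35 in shRNA1 libraries, 5.26, 5.17 and 5.29 in shRNA2 libraries, and 5.43, 5.51 and 5.55 in control libraries. Every hairpin library lay below every control, and Ttk stood at 83.3% of control (log2 difference -0.26, SE 0.07, adjusted p = 0.0373, limma). It was not called with shRNA1 (-0.27, adjusted p = 0.0716) or shRNA2 (-0.26, adjusted p = 0.075) alone in that fit, and passed with each under the replicate block (adjusted p = 0.033 and 0.0371, limma). Bub1b encodes BubR1, a part of the mitotic checkpoint complex that inhibits the APC/C. It had 7.42, 7.41 and 7.40 in shRNA1 libraries, 7.46, 7.33 and 7.39 in shRNA2 libraries, and 7.55, 7.64 and 7.6 in control libraries. The hairpin libraries were again all below control, at 87.4% of it (-0.19, SE 0.06, adjusted p = 0.0408, limma).

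The Ttk call was lost on leaving out replicate 0, 1 or 2 of control (adjusted p = 0.0547, 0.138 and 0.158, limma), replicate 1 of shRNA1 (0.0607) or replicate 0, 1 or 2 of shRNA2 (0.0540, 0.0795 and 0.0611). The Bub1b call was lost on leaving out replicate 0, 1 or 2 of control (0.0623, 0.182 and 0.149), replicate 1 or 2 of shRNA1 (0.0676 and 0.0787) or replicate 1 or 2 of shRNA2 (0.0860 and 0.0837), and also with quantile normalization (-0.12, adjusted p = 0.169) and with no intensity trend (0.0579). The remaining checkpoint members were the kinase gene Bub1 at -0.17 (SE 0.07), its binding partner Bub3 at -0.16 (SE 0.07) and Mad2l1 at -0.00 (SE 0.08). Mad2l1 encodes MAD2, which captures the APC/C activator CDC20, and was among the 3 members nearest 0. Its values were 7.94, 8.13 and 8.20 in shRNA1 libraries, 7.96, 8.19 and 8.11 in shRNA2 libraries, and 8.05, 8.12 and 8.10 in control libraries, so both lines spanned the control range, with replicate 0 the lowest of each group.

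Kinetochore members did not pass in either direction (0 of 8, background 17.6% of all genes). Cenpf, a large protein of the outer kinetochore, had log2 values of 7.06, 7.78 and 7.62 in shRNA1 libraries, 7.22, 7.39 and 7.77 in shRNA2 libraries, and 7.56, 7.85 and 7.76 in control libraries. The groups overlapped, replicate 0 was lowest in each, and the difference of -0.25 (SE 0.17) had an adjusted p of 0.333 (limma). Cenpe, a kinesin that carries chromosomes to the spindle equator, had 7.22, 7.46 and 7.36 in shRNA1 libraries, 7.24, 7.06 and 7.36 in shRNA2 libraries, and 7.43, 7.58 and 7.53 in control libraries. Only shRNA2 lay wholly below control (-0.29, adjusted p = 0.0816, and 0.0481 with the block, limma), and the test of shRNA2 against shRNA1 gave -0.12 (adjusted p = 0.778). Knl1, the scaffold that recruits Bub proteins, had 6.09, 7.11 and 6.89 in shRNA1 libraries, 6.45, 7.15 and 7.09 in shRNA2 libraries, and 6.61, 6.80 and 6.96 in control libraries. In both knockdown lines replicate 0 was far below the others, at -0.91 in shRNA1 and -0.67 in shRNA2 against the mean of replicates 1 and 2. The mean of both hairpins stood at 0.00 (SE 0.23), with the widest interval of all members (-0.52 to 0.52).

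The Ndc80 complex, which grips the microtubule, had Spc25 above control in shRNA2, and its other subunits were not called. Spc25 had log2 values of 6.17, 6.22 and 6.34 in shRNA1 libraries, 6.49, 6.51 and 6.43 in shRNA2 libraries, and 6.21, 6.30 and 6.20 in control libraries. All shRNA2 values were above all controls, and shRNA1 overlapped control. With shRNA2 the difference was 0.24 (SE 0.07, adjusted p = 0.0564, and 0.0408 with the replicate block, limma), and with shRNA1 it was 0.00 (adjusted p = 0.973). Spc24, Nuf2 and Ndc80, the other subunits, had mean differences of -0.05 (SE 0.07), -0.02 (SE 0.06) and -0.03 (SE 0.12). For Ndc80 this joined -0.16 with shRNA1, each library below the control of its digit, and 0.10 with shRNA2, each library above it. Its difference of shRNA2 against shRNA1 was 0.26 (SE 0.14, 95% interval -0.06 to 0.57, adjusted p = 0.620, limma), against 0.23 (SE 0.07, adjusted p = 0.251) for Spc25. Cenpa, the centromeric histone H3 variant, differed by -0.06 (SE 0.10).

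Genes of anaphase promotion gave 0 calls among 3 in the mean of both hairpins (background 17.6% of all genes in either direction). Cdc20, the APC/C activator, had log2 values of 6.82, 6.43 and 6.43 in shRNA1 libraries, 6.63, 6.36 and 6.37 in shRNA2 libraries, and 6.87, 6.54 and 6.70 in control libraries. Replicate 0 was highest in each group, and each hairpin library was below the control of its own digit. The difference of -0.19 (SE 0.12) had an adjusted p of 0.278, and of 0.0375 with the block (limma). Espl1 (separase, the protease that cleaves cohesin) had 6.52, 6.44 and 6.20 in shRNA1 libraries, 6.56, 6.21 and 6.35 in shRNA2 libraries, and 6.18, 6.56 and 6.38 in control libraries. Its groups overlapped and the mean difference was 0.01 (SE 0.11). The ubiquitin-conjugating enzyme gene Ube2c, which works with the APC/C, stood at -0.08 (SE 0.07).

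Among the kinesins 1 of 7 fell (background 7.89% of all genes). Kif4 is a chromokinesin that organises chromosome arms and the central spindle. Its log2 values were 6.29, 6.49 and 6.50 in shRNA1 libraries, 6.51, 6.27 and 6.40 in shRNA2 libraries, and 6.64, 6.83 and 6.87 in control libraries. Every hairpin library was below every control. Kif4 stood at 77.5% of control in the mean of both hairpins (log2 difference -0.37, SE 0.08, 95% interval -0.56 to -0.18, adjusted p = 0.0187, limma). With shRNA1 the difference was -0.35 (adjusted p = 0.0458) and with shRNA2 it was -0.38 (adjusted p = 0.0357).

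The Kif4 call in the mean was lost without control replicate 1 (adjusted p = 0.0946, limma) or 2 (0.0997) and passed in every other setting run. With shRNA1 it was lost on leaving out replicate 1 or 2 of control (0.157 and 0.168), replicate 0, 1 or 2 of shRNA1 (0.0742, 0.0756 and 0.0774) or replicate 1 or 2 of shRNA2 (0.0580 and 0.0733). Quantile normalization (0.0596), no intensity trend (0.0602) and a fit of only the 2 groups (0.0794) ended it too. With shRNA2 it was lost on leaving out replicate 1 or 2 of control (0.130 and 0.135), replicate 2 of shRNA1 (0.0520) or replicate 1 or 2 of shRNA2 (0.126 and 0.101).

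The other kinesins did not pass. Kif20a, which acts in the central spindle, had 6.96, 7.15 and 7.16 in shRNA1 libraries, 7.09, 7.10 and 7.17 in shRNA2 libraries, and 7.23, 7.36 and 7.35 in control libraries. The hairpin libraries lay wholly below control, by -0.21 (SE 0.07, adjusted p = 0.0644, and 0.0216 with the block, limma). Kif20b stood at -0.21 (SE 0.09), the microtubule depolymerase Kif2c at -0.12 (SE 0.06) and Kif11, which pushes the spindle poles apart, at -0.10 (SE 0.08). Kif14 was at -0.09 (SE 0.13) and Kif18a, which limits chromosome oscillation, at 0.01 (SE 0.08).

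**Figure D4:**
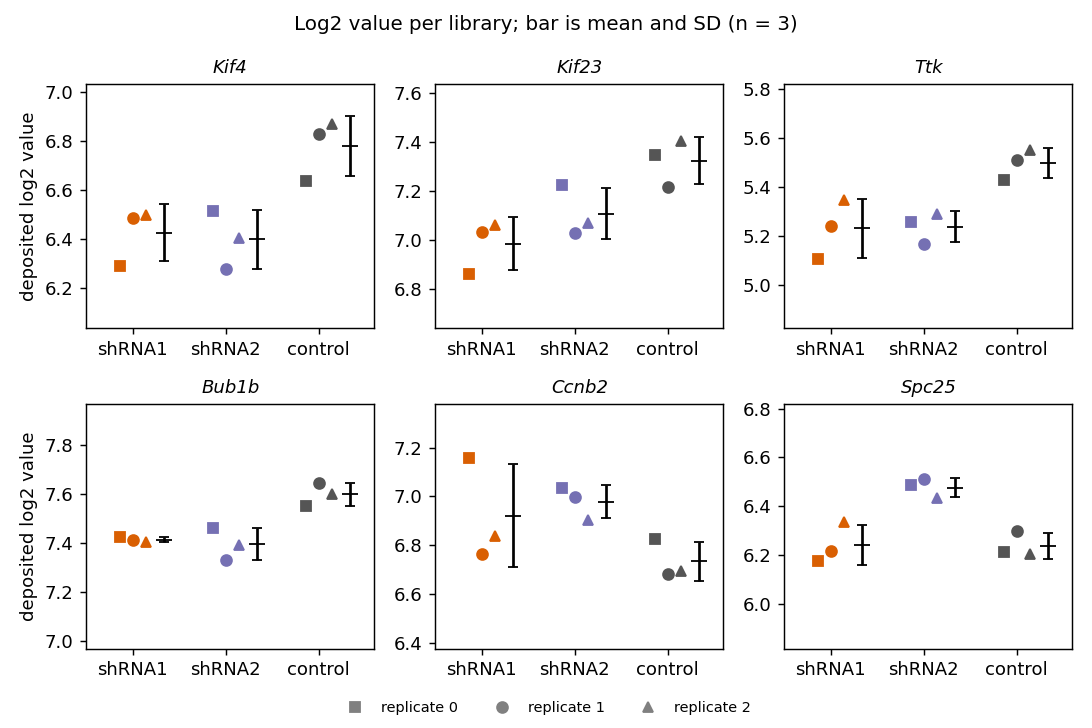
Deposited log2 values of Kif4, Kif23, Ttk, Bub1b, Ccnb2 and Spc25 in each library, by group (shRNA1, shRNA2, control), with marker shape for the replicate digit and a bar for the mean and SD (n = 3). Kif4, Ttk and Bub1b show all 6 hairpin libraries under all controls, in Kif23 shRNA2 replicate 0 reaches the control range, and in Spc25 all 3 shRNA2 libraries lie above all the others.

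Spindle and chromosome factors gave 0 calls among 4 in the mean of both hairpins (background 17.6% of all genes in either direction). Top2a, the topoisomerase that untangles sister chromatids, had log2 values of 9.29, 9.78 and 9.81 in shRNA1 libraries, 9.63, 9.78 and 9.95 in shRNA2 libraries, and 9.75, 10.14 and 10.07 in control libraries. Replicate 0 was lowest in every group, and within each digit the hairpin library was below control. The difference of -0.28 (SE 0.14) had an adjusted p of 0.195, and of 0.0176 with the replicate block (limma). Tpx2, which activates Aurora A on the spindle, stood at -0.11 (SE 0.08), Nusap1, a microtubule-binding protein, at 0.03 (SE 0.08) and Hmmr, a spindle-pole protein, at 0.06 (SE 0.06).

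Cytokinesis genes had 1 call among 5 (background 17.6% of all genes in either direction). Kif23 encodes the kinesin subunit of centralspindlin, which marks the division plane. It had log2 values of 6.86, 7.03 and 7.06 in shRNA1 libraries, 7.22, 7.03 and 7.07 in shRNA2 libraries, and 7.35, 7.22 and 7.40 in control libraries. Libraries of shRNA1 were all below control, whereas shRNA2 replicate 0 overlapped the lowest control. Kif23 stood at 82.5% of control in the mean (-0.28, SE 0.08, adjusted p = 0.036, limma), with -0.34 in shRNA1 (adjusted p = 0.0377) and -0.22 in shRNA2 (adjusted p = 0.141). The difference between the lines was 0.12 (adjusted p = 0.746).

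In the mean, Kif23 was not called on leaving out replicate 0, 1 or 2 of control (adjusted p = 0.0951, 0.0672 and 0.164, limma), replicate 1 of shRNA1 (0.0508) or replicate 1 or 2 of shRNA2 (0.0774 and 0.0763), or with quantile normalization (0.084). The shRNA1 call was lost on leaving out any library other than shRNA2 replicate 0, with adjusted p between 0.0566 and 0.149. It was also lost with quantile normalization (0.0811), no intensity trend (0.0525) and a fit of only the 2 groups (0.0714). Ect2, which activates the small GTPase RhoA at the division plane, had 7.37, 7.82 and 7.81 in shRNA1 libraries, 7.61, 7.72 and 7.71 in shRNA2 libraries, and 7.75, 8.09 and 7.97 in control libraries. Replicate 0 was lowest in each group, and the difference of -0.26 (SE 0.11) had an adjusted p of 0.144, and of 0.0215 with the block (limma). Anln, the ring scaffold anillin, stood at -0.19 (SE 0.06, adjusted p = 0.0666, and 0.0466 with the block, limma). Racgap1, the partner of Kif23 in centralspindlin, stood at -0.06 (SE 0.06) and Prc1, which bundles the microtubules of the central spindle, at 0.08 (SE 0.09).

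Between the lines, shRNA2 against shRNA1, 0 of 43 members were called in either direction (limma), where 0.232% of all genes were lower and 0.223% higher. The replicate block also gave 0 members (backgrounds 1.04% and 0.827%). At an unadjusted p under 0.05, 3 members (6.98%) were higher in shRNA2 (Cdc25b, Racgap1 and Spc25, background 5.33%) and 0 were lower (background 4.71%). The median member was at 0.03, 15 members (34.9%) lay below 0 (background 48.7%), and the 95% intervals of 40 members lay within -0.5 to 0.5. That median was 0.01 and 0.07 without shRNA1 replicate 0 and 2, 0.05 without shRNA2 replicate 2, and -0.02 without the libraries numbered 0. Cdc25b had log2 values of 6.84, 6.64 and 6.69 in shRNA2 libraries and 6.54, 6.42 and 6.41 in shRNA1 libraries, which did not overlap. The difference was 0.27 (95% interval 0.08 to 0.46, adjusted p = 0.271, limma), and without the libraries numbered 0 Cdc25b was the 1 member called higher (background 3.92%) and 0 were called lower (background 4.95%). For Kif4 the interval of the difference between the lines was -0.25 to 0.19 and for Bub1b it was -0.16 to 0.13.

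To set the members among related genes, 153 genes in 8 lists of mitotic regulators and complexes were examined, none of them a member and all of them measured. The lists were chosen with earlier results of these data known. In the mean of both hairpins 11 (7.19%) fell and 1 (0.654%) rose, against 7.89% and 9.69% of all genes, and the median was -0.08. With shRNA1 the counts were 11 and 1 (7.19% and 0.654%, backgrounds 5.49% and 6.92%). With shRNA2 they were 6 and 1 (3.92% and 0.654%, backgrounds 5.67% and 7.27%), and between the lines they were 0 and 0 (backgrounds 0.232% and 0.223%). In the mean, the replicate block gave 26 lower and 6 higher of 153 (backgrounds 14.1% and 16.2%). Leaving out the libraries numbered 0 gave 38 and 10 of 153 (backgrounds 20.5% and 20.9%).

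Among 24 regulators of the G2/M transition, 4 fell and 1 rose in the mean (backgrounds 7.89% and 9.69% of all genes). Cdc25a, a phosphatase that activates CDKs, fell by 0.45 on the log2 scale (SE 0.06, adjusted p = 0.00288, limma). Mybl2 (B-MYB), a transcription factor that joins the MuvB core at promoters of mitotic genes, was at -0.48 (SE 0.11, adjusted p = 0.0179). Gtse1, a microtubule-associated regulator of G2, was at -0.27 (SE 0.07, adjusted p = 0.0315). Tfdp1, the dimer partner of E2F factors, was at -0.26 (SE 0.07, adjusted p = 0.0349), and Pkmyt1, a kinase that inhibits CDK1, rose, at 0.27 (SE 0.08, adjusted p = 0.039). Of these, Cdc25a was called with each hairpin alone. Gtse1, Tfdp1 and Pkmyt1 were called only with shRNA1, and Mybl2 only with shRNA2. Per hairpin, the calls of this list also held Wee1, another kinase that inhibits CDK1, at -0.31 with shRNA1 (SE 0.08, adjusted p = 0.0340, limma). They also held Ensa, which promotes mitosis by inhibiting the phosphatase PP2A, at 0.25 with shRNA2 (SE 0.07, adjusted p = 0.0418, limma).

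The outer kinetochore and checkpoint list, 15 genes beyond the members, gave 4 lower and 0 higher in the mean (backgrounds 7.89% and 9.69% of all genes). Mad1l1, which brings MAD2 to kinetochores, was at -0.35 (SE 0.06, adjusted p = 0.00731, limma). Trip13, an ATPase that remodels MAD2, was at -0.39 (SE 0.08, adjusted p = 0.0137). Zw10, a part of the complex that recruits dynein to kinetochores, was at -0.32 (SE 0.08, adjusted p = 0.0236), and Mis12, of the complex that links centromere and Ndc80, was at -0.24 (SE 0.06, adjusted p = 0.0278). Mad1l1 and Trip13 were also called with each hairpin alone, and Zw10 and Mis12 only with shRNA1.

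Of 35 spindle assembly genes 2 fell in the mean (background 7.89% of all genes). They were Rcc1 (the nucleotide exchange factor for Ran, -0.28, SE 0.06, adjusted p = 0.0172, limma) and Tubgcp5 (a gamma-tubulin complex protein, -0.30, SE 0.08, adjusted p = 0.0265). Rcc1 was also called with each hairpin alone, and Tubgcp5 only with shRNA1. Of 18 further cytokinesis genes 1 fell in the mean (background 7.89% of all genes). It was Septin9, a filament-forming GTPase (-0.35, SE 0.10, adjusted p = 0.0351, limma). Septin9 was called with neither hairpin alone. The single-hairpin calls of this list were Septin7 with shRNA1 and Cep55 with shRNA2, both lower. Lists for the APC/C (18 genes), the inner kinetochore (20), cohesin (15) and condensin (8) held 0 calls in the mean (background 17.6% of all genes in either direction). The largest difference in them was -0.26 for Fbxo5 (an APC/C inhibitor), -0.32 for Cenps, -0.25 for Smc3 and -0.36 for Ncapg2, with adjusted p of 0.170, 0.0717, 0.402 and 0.239 (limma). Their medians were -0.06, -0.01, -0.16 and -0.16.

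**Figure D5:**
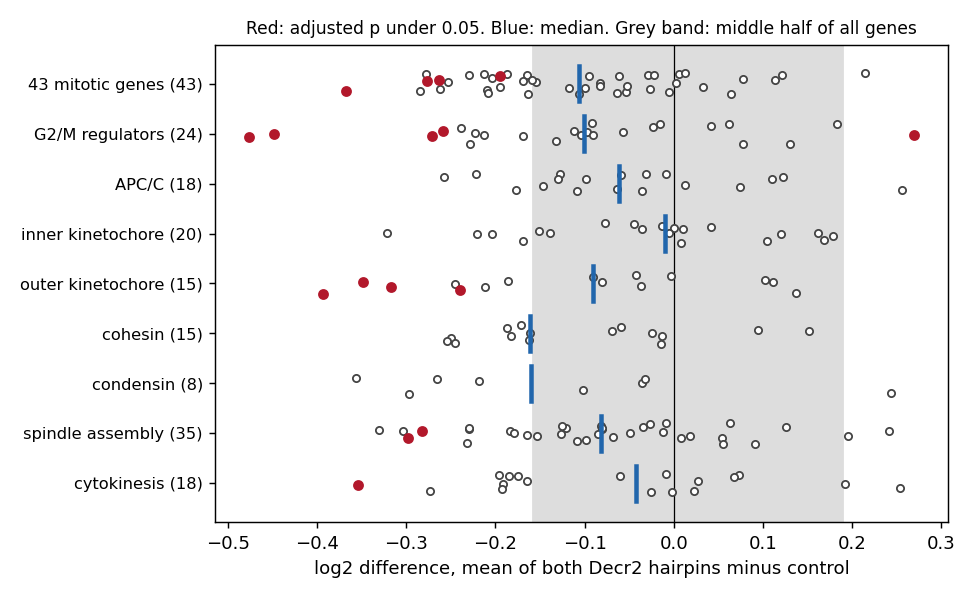
Log2 difference, mean of both Decr2 hairpins minus control, for the 43 mitotic genes and for the 8 related lists, with 1 point per gene, the median in blue and calls at an adjusted p under 0.05 in red. The grey band runs between the quartiles of all genes (-0.16 and 0.19), and the medians of the lists lie between -0.16 and -0.01.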

How the data were processed

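Gene expression was measured by RNA sequencing in 9 libraries, and groups and replicate digits were taken from the sample titles. Per the submitters' processing notes, the tools were FastQC, limma and kallisto, with no version stated, and the sources used here do not give the build, the annotation or any low-level filter. The deposited values are log2 values per gene and library, and for each Decr2 hairpin the authors' table also holds log2 fold changes, p-values and t scores, which were used only to describe that table. The table's column codes do not spell out which Decr2 hairpin they mark. They were linked through the authors' headed comparisons, since 99.95% of fold changes headed shRNA1 and 99.7% of those headed shRNA2 lay within 0.05 of the difference of means of the linked columns (26.6% and 26.3% for the reverse link). Read depth is unknown, so precision rests on the spread between libraries, and levels are not compared between genes because scaling by length is not stated.

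Differences between the deposited log2 values were tested in R 4.3.3 by limma 3.58.1, with group means, all 9 libraries, an intensity trend (6 residual and 3.30 prior degrees of freedom), no filter and no pseudocount. Adjustment for multiple tests followed Benjamini and Hochberg and covered all 10762 genes. Errors are standard errors and intervals are at 95%. No label says that replicates were separate cultures, so each p-value reflects only how these libraries scatter, and that scatter may be technical. The replicate block took the digits to pair the libraries, which no stated design gives. Over all genes, deviations from group means correlated at 0.126 to 0.644 in the 9 same-digit pairs, and at -0.629 to 0.531 in the other 18. Libraries numbered 0 were set apart, whereas digits 1 and 2 were not set apart from each other. With replicates 1 and 2 of shRNA2, shRNA1 replicate 1 correlated at 0.126 and 0.531, and shRNA1 replicate 2 at 0.353 and 0.505.

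The members and the gene lists were chosen with earlier results of these data known. Library values are printed for members called in the mean of both hairpins, the largest difference of each role group without a call, the 3 nearest 0 and the 3 highest. Those of Ccnb1, Aurka, Cenpe, Kif20a, Ect2 and Cdc25b, and the values of Tfdp1, Pkmyt1, Wee1, Ensa and Mis12, were added after they were seen. Alternatives were other scalings, filters, variance models, a replicate block, library weights and leaving out libraries.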

Additional observations from a re-analysis of the deposited data

Results flagged for a closer look

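The fall of Decr2 differed between the hairpins. Its log2 values were 0.84, 1.18 and 1.55 in shRNA2 libraries and 2.87, 2.51 and 3.18 in shRNA1 libraries, a difference of -1.66 (SE 0.23, adjusted p = 0.0233, limma, and 0.0136 with the replicate block). The test of this difference passed with all 9 libraries in the fit, and not in a fit of the 2 lines alone (adjusted p = 0.116). It was also lost on leaving out replicate 0, 1 or 2 of shRNA2 (0.0555, 0.137 and 0.0708), replicate 1 or 2 of shRNA1 (0.0804 and 0.120) or replicate 1 or 2 of control (0.0591 and 0.0516), with differences between -1.84 and -1.49. In the same contrast 0 of the 43 mitotic genes were called (background 0.455% of all genes in either direction), and their median was 0.03.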

How the results depend on the processing

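No called difference changed sign in any setting, while the counts of calls moved, and the cause was not tested. The counts below are members, out of 43, lower with shRNA1 (2 as reported), with shRNA2 (1), in the mean (4) and with both hairpins (1). Backgrounds beside them are percentages of all genes. Quantile normalization gave 0 with shRNA1 (background 4.43%), 2 in the mean (7.24%) and 0 with both (2.26%). No intensity trend gave 0 with shRNA1 (4.54%), 3 in the mean (7.06%) and 0 with both (2.4%). Fits of only the groups compared gave 0 with shRNA1 (2.75%), 2 with shRNA2 (7.55%) and 0 with both (1.89%). Centring gave 7 in the mean (8.93%). The replicate block gave 6, 5, 11 and 3 (backgrounds 11.2%, 10.6%, 14.1% and 6.24%). Library weights gave 23, 19, 22 and 18 of 43 members (backgrounds 23.3%, 19.7%, 24.1% and 14.1%), each a larger share of the members than of all genes. Leaving out the 3 libraries numbered 0, chosen after seeing the data, gave 15, 19, 19 and 13 (backgrounds 16.9%, 18.1%, 20.5% and 11.1%). Members higher (0 as reported) became 1 with shRNA2 under quantile normalization (background 5.12%), the fit of only the groups compared (9.2%) and the block (13.4%). In the mean they became 1 under the block (16.2%). Library weights made members higher 1, 3, 4 and 1 (backgrounds 23.5%, 21.2%, 25.2% and 15.4%), plus 2 between the lines (6.27%). Leaving out libraries 0 made them 3 with shRNA2 (19.2%), 1 in the mean (20.9%) and 1 between the lines (3.92%). Library weights ran from 0.132 (shRNA1 replicate 0) to 4.94 (shRNA1 replicate 2).

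Genes called over the whole table numbered 1336 with shRNA1, 1392 with shRNA2, 1892 in the mean, 49 between the lines and 813 with both. With the replicate block they were 2646, 2583, 3263, 201 and 1659, with library weights 5038, 4404, 5306, 1360 and 3175, and without libraries 0 they were 3711, 4011, 4452, 955 and 2547. Fitting only the groups compared gave 675 with shRNA1, 6 between the lines and 480 with both, and Decr2 between the lines was then -1.66 (adjusted p = 0.116, limma). The mean of both hairpins uses all groups and so has no such fit.

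Leaving out 1 library at a time gave 0 to 2 members lower with shRNA1, 0 to 7 with shRNA2, 0 to 9 in the mean, 0 to 2 with both and 0 between the lines, and 0 to 2 members higher with shRNA2 and 0 elsewhere. Genes called ran from 328 to 1579 with shRNA1, 406 to 2450 with shRNA2, 616 to 2642 in the mean, 3 to 94 between the lines and 188 to 1062 with both. Decr2 ran from -1.23 to -0.90 with shRNA1 and -1.84 to -1.49 between the lines. The replicate block changed no call of a member other than those already named. Read depth is unknown, so its limits were not measured.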
